A study of Oryza sativa with 4 samples.

Results

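The genes described here were 9 rice loci of phosphate starvation signalling, phosphate transport and the lipid exchange that goes with phosphate shortage. They were taken by locus identifier from a fixed list, with no threshold on their values, although earlier results of these data were known when the list was made. They make up 9 of the 55986 gene models in the count tables. They are PHR2, SPX1, SPX2 and PHO2 among the regulators, PT2, PT6, PT8 and PHO1;2 among the transporters, and SQD2 for lipid remodelling, on 7 chromosomes. The libraries came from 7-day-old seedlings of the mre11 mutant, a T-DNA insertion line, and of wild type (WT) rice, the japonica cultivar Dongjin. The published methods do not name the cultivar of the insertion line. Each genotype had 2 libraries, each made from 3 pooled plants, and the mutant was represented by 1 insertion line. Mre11 is a subunit of the complex that recognises and trims DNA double-strand breaks. The sources used here describe no phosphate treatment of either genotype, so the comparison is between genotypes and not between phosphate supplies.

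Rice senses phosphate through a short chain of proteins. The MYB-type transcription factor PHR2 switches on starvation genes, and SPX proteins bind and hold PHR2 back while phosphate is plentiful. When phosphate runs short, PHR2 is released and drives root transporters of the Pht1 family, enzymes that free phosphate from organic compounds, and enzymes that replace phospholipids by lipids without phosphorus, while the ubiquitin-conjugating enzyme PHO2 has the opposite role and limits uptake.

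The 4 libraries held between 12753324 and 19004825 counts on gene models, and 3 counts in a library, taken as the floor of detection, corresponded to 0.158 to 0.235 CPM, that is, counts scaled to the library total. Levels below are CPM scaled by edgeR's TMM factors, and levels per length are given as RPKM, the length- and depth-scaled values that the authors deposited. The quasi-likelihood test of edgeR covered 24470 genes, and a gene was called when its Benjamini-Hochberg adjusted p was under 0.05 and its difference at least 2-fold. The p-values measure only the spread between these libraries, and a permutation of 2 against 2 libraries could not give a p below 0.33. The Mre11 gene itself, LOC_Os04g54340, had 132 and 118 counts in mre11 and 306 and 471 counts in WT, a log2 fold change of -2.09 (SE 0.19, edgeR adjusted p = 0.00141), which is the direction the labels call for.

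Among the phosphate genes, the transporter PT8 rose 3.19-fold and the exporter PHO1;2 rose 2.04-fold in mre11 seedlings, and no member was called lower. The call thus took in 2 of the 8 members tested, where 21.3% of all tested genes were called, 12.0% higher and 9.31% lower. PT6 was not tested because it had almost no counts. At an adjusted p under 0.05 with no fold threshold the count was 4 of 8, with PHR2 and SPX1 lower beside the 2 higher genes, against 37.1% of all tested genes. Both mre11 libraries lay on 1 side of both WT libraries for 7 of the 8, 4 above and 3 below, against 73.2% of all tested genes. The median log2 fold change of the 8 members was 0.17 and that of all tested genes 0.03. As a set, therefore, the members were called about as often as other genes.

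**Figure D1:**
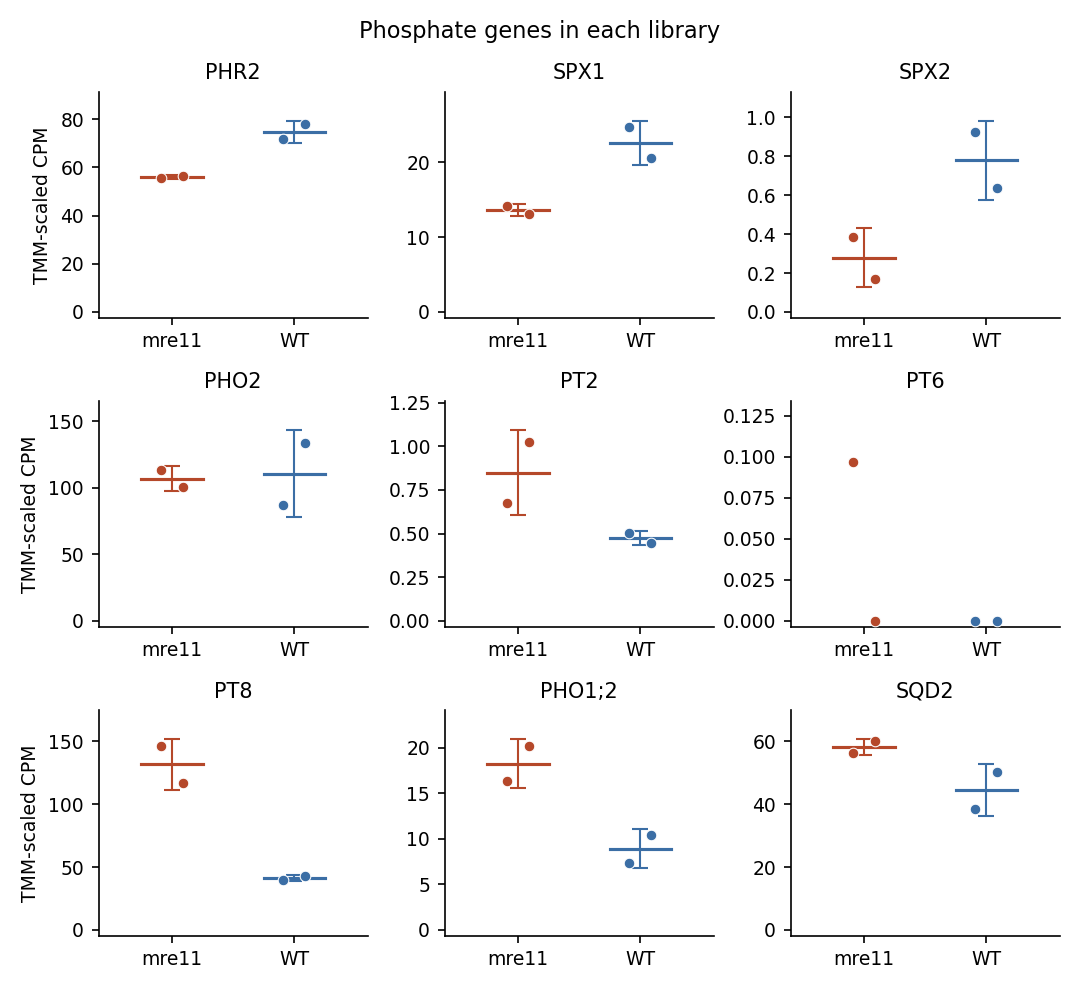
TMM-scaled CPM (vertical axis, from 0, with its own range in each panel) of the 9 phosphate genes in each mre11 library (left) and each WT library (right). Dots are libraries, bars the mean and whiskers the SD of 2 libraries, with dots alone for PT6. PT8 and PHO1;2 were higher in both mre11 libraries, PHR2 and SPX1 lay lower in both, and the genotypes overlapped for PHO2.

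PT8 (LOC_Os10g30790) encodes a plasma membrane phosphate and proton symporter of the Pht1 family that is known to act in roots and shoots, and it was the member with the largest called difference. It had 3025 and 2063 counts in the mre11 libraries and 469 and 678 in the WT libraries, or 146 and 117 CPM in mre11 and 39.4 and 43.1 CPM in WT. The lowest mre11 library was therefore well above the highest WT library. PT8 averaged 132 ± 20.4 CPM in mre11 and 41.3 ± 2.65 CPM in WT (SD, n = 2 each), a log2 fold change of 1.67 (SE 0.16, 95% interval 1.28 to 2.06, edgeR adjusted p = 0.00152). As a fold this was 3.19, with an interval of 2.43 to 4.18. The call held under all 18 alternatives run, with log2 fold changes of 1.51 to 1.84.

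PT8, PT2 and PT6 share a KEGG orthology identifier (K08176) with 13 further loci in the deposited annotation, a family of 16 loci over which the counts were spread very unevenly. In 11 of the 16 loci no library had 10 counts or more, and 3 of those had none. Of the 4 that could be tested, PT8 was called higher, and the other 3 were not called. LOC_Os04g10690 had 32 and 7 counts in mre11 and none in WT, and was not tested because it did not pass the filter on low counts. Nearly all counts of the family lay on PT8 and on LOC_Os03g05620, which had 3521 and 2194 counts in mre11 and 1272 and 1850 in WT. That locus had a log2 fold change of 0.39 (SE 0.18, edgeR adjusted p = 0.135), so its difference did not pass the test. LOC_Os04g10750 had 100 and 46 counts in mre11 and 15 and 42 in WT, with a log2 fold change of 0.90 (edgeR adjusted p = 0.200).

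The make-up of the family differed accordingly. PT8 took 45.1% (exact Clopper-Pearson 95% interval 43.9% to 46.3%) and 47.6% (46.1% to 49.1%) of the family's counts in the mre11 libraries, against 26.5% (24.4% to 28.6%) and 26.2% (24.6% to 28.0%) in the WT libraries. The shares of the 2 libraries of a genotype lay within counting error of each other in WT, and the genotypes did not overlap. LOC_Os03g05620 took 52.5% and 50.6% in mre11 and 71.8% and 71.6% in WT. By RPKM, which takes length into account, LOC_Os03g05620 averaged 73.7 in mre11 and 49.9 in WT, above PT8 at 26.5 in mre11 and 7.39 in WT. The size of this gap depends on the length used, since the RPKM of PT8 rests on 1.86 times its listed length. Per kilobase of listed length, without TMM factors, PT8 came to 56.3 and 42.5 CPM in mre11 and 13.0 and 14.6 CPM in WT. The summed CPM of the 16 loci was 324 and 246 in mre11 and 149 and 164 in WT. These intervals cover counting error only, and the reads of a locus with a near-identical copy may have been split or dropped in the counting.

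**Figure D2:**
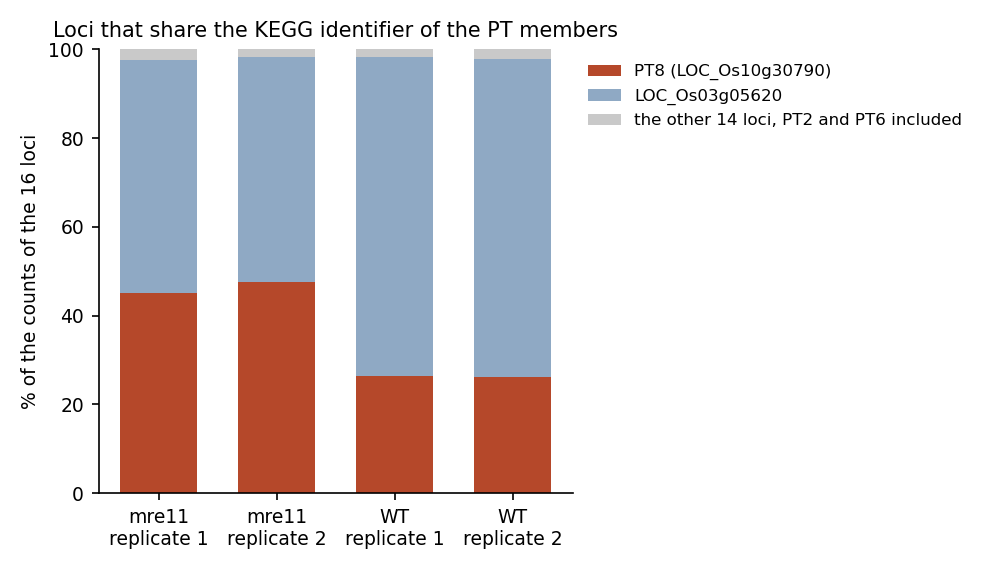
Share of the counts (vertical axis, percent) of the 16 loci that share the KEGG orthology identifier of PT8, as stacked bars for the 2 mre11 libraries (left) and the 2 WT libraries (right). PT8 took 45.1% and 47.6% of the family's counts in mre11 and 26.5% and 26.2% in WT, and LOC_Os03g05620 took most of the remainder.

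PT2 and PT6, which are known in rice as root phosphate transporters that respond to phosphate starvation, were close to or under the limit of detection. PT2 (LOC_Os03g05640), a low-affinity transporter of the root stele, had 14 and 18 counts in mre11 and 6 and 7 counts in WT, or 0.676 and 1.02 CPM in mre11 and 0.504 and 0.445 CPM in WT. Both mre11 libraries lay above both WT libraries, and the log2 fold change of 0.83 had an interval of -0.52 to 2.18 (SE 0.56, edgeR adjusted p = 0.282). LOC_Os03g05620 lies 2 rows before PT2 in the tables, and whether some of PT2's few reads came from such a copy was not tested. PT6 (LOC_Os08g45000), a high-affinity transporter, had 2 and 0 counts in mre11 and 0 and 0 in WT. A count of 0 allows up to 3 counts, so a difference in PT6 was not detectable at this depth.

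PHO1;2 (LOC_Os02g56510) encodes the exporter that loads phosphate into the xylem for transport from root to shoot. It had 338 and 355 counts in mre11 and 88 and 164 counts in WT, or 16.3 and 20.2 CPM in mre11 and 7.39 and 10.4 CPM in WT. The groups did not overlap, and the WT libraries lay further apart in proportion than the mre11 libraries. The gene averaged 18.2 ± 2.72 CPM in mre11 and 8.91 ± 2.15 CPM in WT (SD, n = 2 each), a log2 fold change of 1.03 (SE 0.25, 95% interval 0.44 to 1.61, edgeR adjusted p = 0.0199). The gene was thus just past the 2-fold threshold. Without WT replicate 1 the log2 fold change was 0.79 (edgeR adjusted p = 0.108), and without mre11 replicate 2 it was 0.86 (edgeR adjusted p = 0.0602), so the call rests on these libraries.

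The exporter's locus in rice is known to give an antisense transcript as well. Whether reads were counted by strand is not stated in the sources used here, so sense and antisense reads cannot be told apart. The next locus in the tables, LOC_Os02g56520, which carries no KEGG orthology identifier, also rose, with 354 and 316 counts in mre11 and 72 and 106 in WT (log2 fold change 1.45, edgeR adjusted p = 0.00377). Its position relative to the exporter is not in the files, and a part of shared reads in either value was not tested. A called neighbour was not particular to PHO1;2. Within 2 rows of other members, LOC_Os07g01020 by SQD2 (log2 fold change 1.99) and LOC_Os07g25690 by PHR2 (3.20) were called higher. The latter had only 15 and 13 counts in mre11 and 1 and 1 in WT, where it lay under the floor. LOC_Os02g10794 by SPX2 (log2 fold change -1.47) was called lower. Of all tested genes, 21.3% were called. Of the 2 other listed loci related to PHO1, LOC_Os06g29790 had 193 and 138 counts in mre11 and 57 and 93 in WT (log2 fold change 0.68, edgeR adjusted p = 0.0872). LOC_Os01g02000 had 31 and 35 counts in mre11 and 13 and 36 in WT (log2 fold change 0.02, edgeR adjusted p = 0.980). Both mre11 libraries were above WT for LOC_Os06g29790, and the groups overlapped for LOC_Os01g02000.

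Several of these transporters are root genes, so organ markers were measured beside them. The 7 loci listed as root-preferring had a summed level of 67.4 and 60.9 CPM in mre11 and 66.3 and 70.1 CPM in WT, a range that overlapped between genotypes. Of these, 2 had no counts in any library, 4 were tested, and none of the 4 was called. The largest part of the sum lay on 1 locus, LOC_Os02g51110, at 42.4 and 30.4 CPM in mre11 and 37.5 and 41.5 CPM in WT. In somewhat older seedlings, the paper reports shorter shoots and roots in mre11 than in WT, with the larger proportional loss in shoots. The 50 loci annotated to light harvesting or photosystems summed to 13555 and 21134 CPM in mre11 and 7429 and 11883 CPM in WT, with 3 called higher and 8 called lower among 24 tested. The 60 loci with nutrient reservoir activity, a term that covers seed storage proteins, summed to 1223 and 1362 CPM in mre11 and 996 and 945 CPM in WT, with 5 called higher and 2 lower among 28 tested. Over all tested genes, 12.0% were called higher and 9.31% lower. The shares were 12.5% higher and 33.3% lower for the light-harvesting and photosystem loci. For the nutrient reservoir loci they were 17.9% higher and 7.14% lower. The part of these organ differences in the transporter values was not tested. In whole seedlings, more cells of a type and more RNA per cell cannot be told apart.

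**Figure D3:**
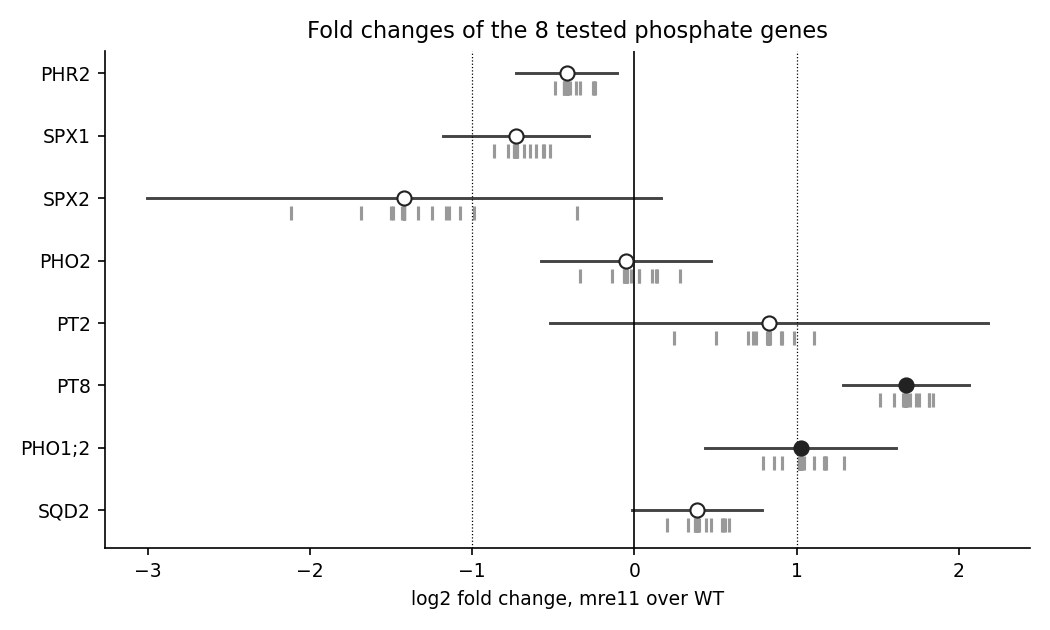
Log2 fold change, mre11 over WT (horizontal axis), of the 8 phosphate genes tested by edgeR (filled circles called, open circles not called), with the 95% interval as a line, the alternatives as grey ticks and a 2-fold difference as dotted lines. The interval of PT8 (1.28 to 2.06) lies wholly beyond a 2-fold difference, that of PHO1;2 (0.44 to 1.61) reaches below it, and those of SPX2, PHO2, PT2 and SQD2 include 0.

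None of the 4 regulators was called, and 2 of them, PHR2 and SPX1, had an adjusted p under 0.05 with lower levels in mre11. PHR2 (LOC_Os07g25710), the transcription factor at the head of the response, had 55.5 and 56.5 CPM in mre11 and 71.6 and 78.0 CPM in WT. The genotypes did not overlap, and the 2 mre11 libraries were close to each other. PHR2 averaged 56.0 ± 0.666 CPM in mre11 and 74.8 ± 4.56 CPM in WT (SD, n = 2 each), 1.34-fold lower in mre11, with a log2 fold change of -0.42 (SE 0.13, 95% interval -0.73 to -0.11, edgeR adjusted p = 0.0450). This missed the 2-fold threshold, and its adjusted p was under 0.05 in 4 of 15 other fits and in none of the 4 that left out a library.

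SPX1 (LOC_Os06g40120) is both a brake on PHR2 and, in rice roots and shoots, a transcript that accumulates when phosphate is short. It had 293 and 230 counts in mre11 and 294 and 323 counts in WT, or 14.2 and 13.1 CPM in mre11 and 24.7 and 20.6 CPM in WT. After scaling, both mre11 libraries were below both WT libraries. The log2 fold change was -0.73 (SE 0.19, 95% interval -1.18 to -0.28, edgeR adjusted p = 0.0247), 1.66-fold lower in mre11 and so not called. The adjusted p was under 0.05 in 9 of 15 other fits, and was 0.133 without WT replicate 1, 0.0652 without WT replicate 2 and 0.0561 without mre11 replicate 2.

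SPX2 (LOC_Os02g10780), a second SPX protein that binds PHR2, was scarcely detected, with 8 and 3 counts in mre11 and 11 and 10 in WT. That is 0.386 and 0.170 CPM in mre11 and 0.924 and 0.636 CPM in WT, all near the floor. Its log2 fold change of -1.42 had an interval of -3.00 to 0.17 (SE 0.66, edgeR adjusted p = 0.135). SPX1 and SPX2 are 2 of the 3 loci that the deposited annotation places under positive regulation of the cellular response to phosphate starvation. The remaining locus, LOC_Os03g29250, had 9 and 10 counts in mre11 and 5 and 3 in WT and was not tested.

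PHO2 (LOC_Os05g48390), the ubiquitin-conjugating enzyme, is known from Arabidopsis to mark phosphate transporters and PHO1 for degradation. It had 113 and 100.2 CPM in mre11 and 87.4 and 134 CPM in WT. The WT libraries enclosed both mre11 libraries, so the groups overlapped. PHO2 averaged 107 ± 9.31 CPM in mre11 and 111 ± 32.9 CPM in WT (SD, n = 2 each), a log2 fold change of -0.05 (SE 0.22, 95% interval -0.57 to 0.47, edgeR adjusted p = 0.866). Its sign turned with the scaling and with the library left out, and no direction is given for it. The interval leaves room for a difference of up to 0.57 on the log2 scale downward. LOC_Os05g48380, the row before PHO2 and a locus with the same orthology identifier, had 696 and 593 counts in mre11 and 839 and 978 in WT (log2 fold change -0.98, edgeR adjusted p = 0.00386), just short of 2-fold. At an adjusted p under 0.05 with no fold threshold, 4483 of all 24470 tested genes were lower in mre11 and 4594 higher. Of the 10 tested loci with PHO2's orthology identifier, 3 were lower at that threshold and none higher, too few to be read against those counts. The only one called was LOC_Os01g12950, with 187 and 152 counts in mre11 and 231 and 262 in WT (log2 fold change -1.03, edgeR adjusted p = 0.00983), a call lost under 5 of 18 alternatives, among them without WT replicate 1 (edgeR adjusted p = 0.0667).

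SQD2 (LOC_Os07g01030) encodes the enzyme of the last step of sulfolipid synthesis, by which plastid membranes can replace phosphatidylglycerol. It had 1168 and 1058 counts in mre11 and 460 and 792 counts in WT, or 56.4 and 60.1 CPM in mre11 and 38.6 and 50.4 CPM in WT. Both mre11 libraries were above both WT libraries, while the WT libraries differed more from each other than the mre11 libraries did. The log2 fold change of 0.39 (SE 0.17, 95% interval -0.02 to 0.79, edgeR adjusted p = 0.114) did not pass the test. LOC_Os03g15840 and LOC_Os01g04920, which share its orthology identifier, had log2 fold changes of -0.50 (edgeR adjusted p = 0.0347) and -0.08 (edgeR adjusted p = 0.725).

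The locus of the step before SQD2, LOC_Os05g32140, is annotated as UDPsulfoquinovose synthase and was singled out after its values were seen. It had 1442 and 1850 counts in mre11 and 547 and 809 in WT, with no overlap after scaling. Its log2 fold change was 0.84 (SE 0.21, edgeR adjusted p = 0.0241), which is under 2-fold and so not a call. With 1 library left out, the log2 fold change ranged from 0.51 to 1.12, so its size depends on the libraries. The adjusted p was under 0.05 in 12 of 15 other fits.

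Per length, the order of the 9 genes differed between the genotypes. By the deposited RPKM, mre11 seedlings had SQD2 at a mean of 28.7, PT8 at 26.5, PHO2 at 25.2, PHR2 at 18.7, SPX1 at 10.2 and PHO1;2 at 4.88, followed by PT2, SPX2 and PT6, all under 1. In that order the ranges of SQD2 and PT8, and of PT8 and PHO2, overlapped. WT seedlings had PHO2 at 23.3, PHR2 at 22.4, SQD2 at 19.7, SPX1 at 15.1, PT8 at 7.39 and PHO1;2 at 2.14, followed by SPX2, PT2 and PT6. Here PHO2 overlapped PHR2, and PHR2 overlapped SQD2. PT8 thus stood above SPX1 and PHR2 in mre11 and below both in WT. Among the tested genes its mean RPKM lay at percentile 80.8 in mre11 and 49.4 in WT, while SPX1 lay at 54.8 in mre11 and 68.1 in WT.

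**Figure D4:**
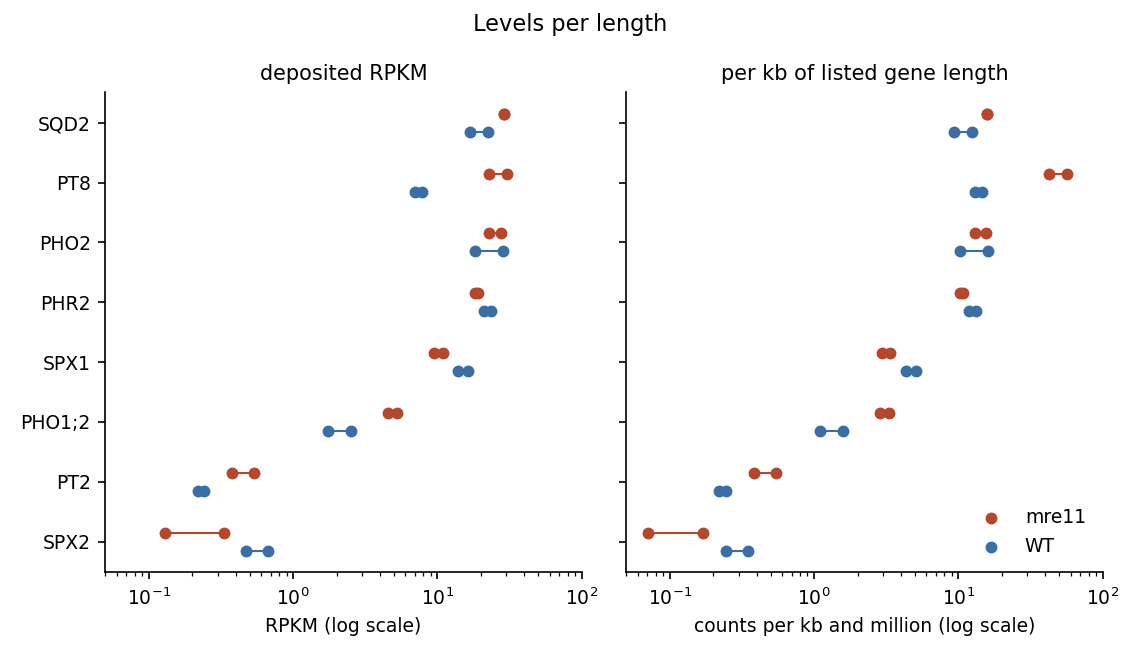
Levels of the phosphate genes (horizontal axes, log scale) in the mre11 libraries (red, upper of each pair) and the WT libraries (blue, lower), as deposited RPKM on the left and as CPM, without TMM factors, per kilobase of listed length on the right. Dots are libraries. PT6 is left out because 3 of its 4 values are 0. The RPKM of PT8 averaged 26.5 in mre11 and 7.39 in WT, and that of PHO2 averaged 25.2 in mre11 and 23.3 in WT.

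The place of PT8 in this order depends on the length used. Its RPKM values correspond to division by 5272 bases, which is 1.86 times the 2829 bases that the tables list for the gene. For the other 8 members the length behind the RPKM was between 0.310 and 1.01 times the listed length, an estimate that is coarse for PT6 with its 2 counts. Among the 14472 genes with at least 100 counts and an RPKM of at least 1 in every library, 8.01% had an implied length more than 2% over the listed one. Per kilobase of listed length, PT8 came to 56.3 and 42.5 CPM in mre11 and 13.0 and 14.6 CPM in WT without TMM factors, and then ranked first in both genotypes, with PHO2 and PHR2 overlapping it in WT. The comparison of genotypes within PT8 is untouched by the choice, since the same length divides all 4 libraries.

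Around the 9 genes, the wider phosphate pathway showed calls in both directions. A list of 40 further loci known from rice phosphate biology had 39 in the files and 28 tested, of which 1 was called higher (3.57%) and 5 lower (17.9%), against 12.0% higher and 9.31% lower among all tested genes. Their median log2 fold change was 0.03, equal to that of all tested genes. Among other transport and trafficking loci, 10 were tested with none called higher and 1 lower. The regulators had 10 tested, with none higher and 2 lower, and the scavenging and lipid loci had 6 tested, with 1 higher and 2 lower. The 2 tested loci of the Pht1 family were not called. These groups are too small for their counts to be read against the share over all genes.

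The locus called higher, LOC_Os12g44020, is annotated as an acid phosphatase responding to phosphate starvation, an enzyme type that frees phosphate from organic compounds. It had 990 and 645 counts in mre11 and 172 and 262 in WT, a log2 fold change of 1.44 (SE 0.19, edgeR adjusted p = 0.00333). A further acid phosphatase, LOC_Os08g17784, was called lower, with 63 and 62 counts in mre11 and 73 and 120 in WT (log2 fold change -1.07, edgeR adjusted p = 0.0314). That call was lost under 9 of 18 alternatives. Among them were any 1 library left out, upper-quartile scaling, library size alone and both limma fits. Of these 2 enzymes, only the higher one kept its call in every fit run.

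Among the other loci called lower, LOC_Os04g46880 had 839 and 768 counts in mre11 and 4067 and 4313 in WT. Its log2 fold change of -2.87 (SE 0.17, edgeR adjusted p = 0.000803) was the largest of the list, and no library came near the other genotype. The DNA-binding regulator LOC_Os04g56990 had 243 and 194 counts in mre11 and 528 and 749 in WT (log2 fold change -2.01, edgeR adjusted p = 0.00118). LOC_Os03g61200, annotated to the starvation response, had 463 and 426 counts in mre11 and 625 and 865 in WT (log2 fold change -1.21, edgeR adjusted p = 0.00230), a call lost with limma on log2(RPKM + 1), where the value was -0.97. Both of these fell in both mre11 libraries after scaling. The glycerophosphodiester phosphodiesterase LOC_Os02g31030, of a type that cleaves glycerophosphodiesters, products of phospholipid breakdown, had 135 and 230 counts in mre11 and 277 and 463 in WT (log2 fold change -1.43, edgeR adjusted p = 0.0190). That call was lost under 3 of 18 alternatives. They were an adjusted p under 0.01 and the fits without WT replicate 1 (log2 fold change -1.60) or WT replicate 2 (-1.26).

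**Figure D5:**
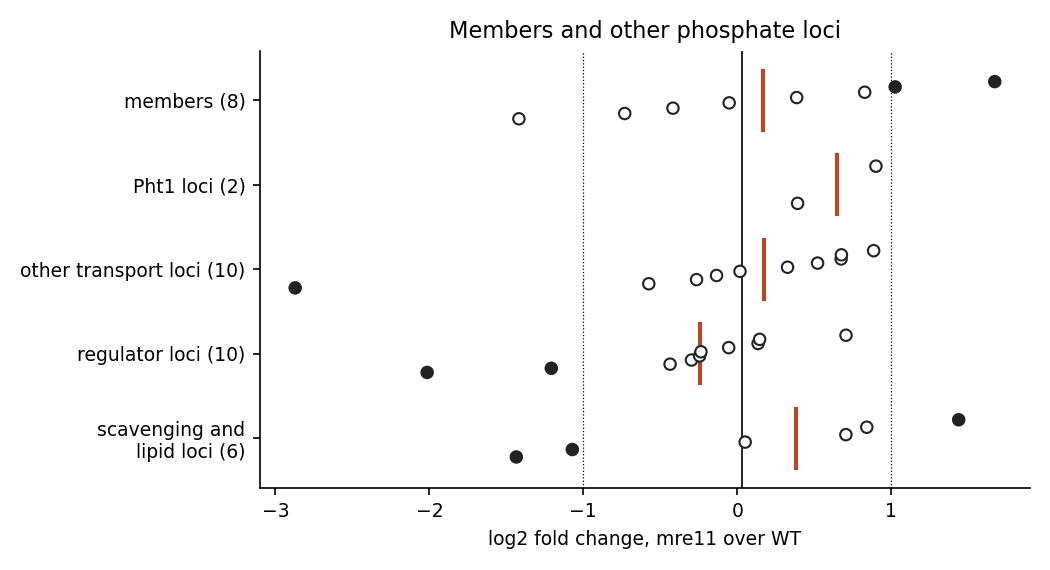
Log2 fold change, mre11 over WT, of each tested locus in the 9 phosphate genes and in the groups of further phosphate loci, with filled circles for called loci, red bars for group medians, a solid line at the median of all tested genes (0.03) and dotted lines at a 2-fold difference. Loci lie on both sides of 0, with medians of 0.17 for the members, 0.65 for the Pht1 family, 0.17 for other transport, -0.24 for the regulators and 0.38 for scavenging and lipids.

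The deposited annotation gave a second view, which shares 16 loci with the list of 39 (41.0% of that list and 27.1% of this one). Leaving out the members, 59 loci carried a term for phosphate transport, phosphate transporter activity or the response to phosphate starvation, and 38 were tested. Of these, 4 were called higher (10.5%) and 7 lower (18.4%), against 12.0% and 9.31% of all tested genes, with a median log2 fold change of 0.06. The share called higher was near that of all genes, and nothing particular to these loci is read from either share. Only 5 of the 9 members carried at least 1 of these 3 terms.

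The calls of this annotation list not yet named fell on enzymes of several kinds. Higher in mre11 was LOC_Os09g38030, annotated as UTP:glucose-1-phosphate uridylyltransferase, which makes UDP-glucose, with 4725 and 4692 counts in mre11 and 1224 and 1822 in WT (log2 fold change 1.18, edgeR adjusted p = 0.00313). LOC_Os01g03549, annotated as a copper-binding oxidoreductase of diphenols, also rose (log2 fold change 1.29, edgeR adjusted p = 0.00636). LOC_Os01g03530, with the same annotated activity, had 63 and 47 counts in mre11 and 13 and 15 in WT (log2 fold change 1.48, edgeR adjusted p = 0.0290). Its call was lost under 8 of 18 alternatives. Among them was every fit with 1 library left out, where the log2 fold change ranged from 1.37 to 1.57.

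Among those called lower, LOC_Os03g16140 is annotated as digalactosyldiacylglycerol synthase, which like SQD2 makes a plastid lipid without phosphorus. It had 1602 and 1540 counts in mre11 and 2385 and 3412 in WT (log2 fold change -1.34, edgeR adjusted p = 0.00183), and the call held under all 18 alternatives. The protein kinase locus LOC_Os04g43710 (log2 fold change -1.79, edgeR adjusted p = 0.00294) and the phosphoenolpyruvate carboxykinase locus LOC_Os03g15050 (log2 fold change -1.47, edgeR adjusted p = 0.00180) also kept their calls under all 18. A further carboxykinase locus, LOC_Os10g13694, had 1523 and 462 counts in mre11 and 1955 and 1840 in WT (log2 fold change -1.49, edgeR adjusted p = 0.0413). Its call was lost under 8 of 18 alternatives. Among them were the fits without WT replicate 1, without WT replicate 2 and without mre11 replicate 2, where the log2 fold change was -0.94. With 1 library left out, its log2 fold change ranged from -2.41 to -0.94. LOC_Os01g63280 (log2 fold change -1.29, edgeR adjusted p = 0.00689) and LOC_Os01g63290 (log2 fold change -1.02, edgeR adjusted p = 0.00498) were both annotated to phosphate transporter activity. Their orthology identifiers differ, K04733 for LOC_Os01g63280 and K08193 for LOC_Os01g63290, and whether both are transporters was not tested. LOC_Os01g63280 lost its call under 2 of 18 alternatives, among them without WT replicate 1. LOC_Os01g63290 lost its call under 6 of 18. Among them were the fits without WT replicate 1, where its log2 fold change was -0.999, just under 2-fold, and without mre11 replicate 2, where it was -0.88.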

How the data were processed

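RNA-seq was done on 2 mre11 and 2 WT libraries. The rice pseudomolecules, version 7.0, were the authors' mapping reference, and per the labels HTSeq 0.6.1 and DESeq2 1.6.3 were used. They deposited raw counts per gene model, which were tested as deposited. RPKM values, which the authors computed per length and library, gave the order of genes within a genotype and an alternative test. Gene lengths and annotation came from a table of the whole series, and a further table with identical values was not used. The strand setting and the aligner are not given in the sources used here. Gene names come from the list of members, and 0 of the identifiers matched the RefSeq table (assembly ASM3414082v1), in which 7 of the 9 member names occur, all 7 on the chromosome that the locus identifier gives.

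Tests were run with edgeR 4.0.16 under R 4.3.3: low counts were removed by filterByExpr, libraries scaled by TMM, and genotypes compared by glmQLFTest after glmQLFit without a replicate block. The procedure was run on simulated data in which few genes or none were changed, evenly in both directions. That setting cannot test the scaling or the error rate under a change as broad as in these libraries. The standard error is the log2 fold change divided by the square root of F. Alternatives used DESeq2 1.42.0, limma 3.58.1 on log2(RPKM + 1) or log2(RPKM + 0.1), 3 other scalings, 3 other filters, a prior count of 2, a replicate block, each library left out and 3 other thresholds. Of the other phosphate loci, those called, and some of those next to a member or able to share reads with one, were named, and LOC_Os05g32140 was named after its values were seen. The members and lists were chosen with earlier results of these data known. Sequences of the genes were not used here.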

Additional observations from a re-analysis of the deposited data

How the results depend on the processing

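PT8 and Mre11 kept their call under all 18 alternatives, and PHO1;2 lost its call under 4: limma on log2(RPKM + 1), an adjusted p under 0.01, and without WT replicate 1 or mre11 replicate 2. The number of members called higher was then 1, and 1 to 2 when a library was left out, while 2 members passed as lower with no fold threshold and 0 with any library left out. PHO2 reversed to log2 fold changes of 0.0288 with upper-quartile scaling, 0.11 with library size alone, 0.13 with limma on log2(RPKM + 1), 0.14 with limma on log2(RPKM + 0.1), 0.28 without WT replicate 2 and 0.0260 without mre11 replicate 2, with a range of -0.34 to 0.28 over the left-out libraries. No other member changed sign. Of the further loci named, LOC_Os01g04920 reversed to 0.00116 with upper-quartile scaling, 0.0805 with library size alone, and 0.0715 and 0.0797 with limma, and LOC_Os01g02000 ranged from -0.41 to 0.66 with a library left out. These scalings moved the median of all genes as well, to 0.11 with upper-quartile scaling, 0.19 with library size alone, and 0.15 and 0.19 with limma. Of all tested genes, 4594 were higher and 4483 lower with no fold threshold, 1614 higher and 1493 lower at an adjusted p under 0.01, and 1336 lower with limma on log2(RPKM + 1). Leaving out a library gave 1668 to 2626 higher and 1493 to 2275 lower. Of the further phosphate loci, 2 were higher with DESeq2, library size alone or no filter, 4 with no fold threshold and 1 to 3 with a library left out, and 3 were lower with limma on log2(RPKM + 1) or at an adjusted p under 0.01 and 3 to 4 with a library left out. The annotated phosphate loci had 3 lower with limma on log2(RPKM + 1) and 4 to 7 with a library left out. The cause of these shifts was not tested. SPX2 and PT2 were each removed by 1 filter and have 17 alternatives.

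Libraries with the same replicate number showed no shared deviation over all genes (r = -0.0035 over 24470 genes, which are not independent). With 2 libraries per genotype this value cannot decide whether samples of the same number were grown or prepared together. With the replicate as a block, 2736 genes were higher and 2231 lower, 2 members were higher and 0 lower, and PHR2 had an adjusted p of 0.0665 from edgeR. Depth limits SPX2, PT2 and PT6, which had 18 counts or fewer in every library.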
